A study of Mus musculus with 8 samples.

Results

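Fibronectin, tenascin, thrombospondin and elastic fibre genes were followed here as 10 genes, Fn1, Tnc, Tnxb, Postn, Sparc, Thbs1, Thbs2, Thbs3, Fbn1 and Eln. They are a list of gene names with no threshold on a measured value, drawn up when earlier results of these data were known, and each of the 10 was found as a single row among the 53801 genes of the count table. The study profiled the bulk transcriptome of stromal cells sorted from MO5 tumours, and the question addressed by the comparison was how cells that express the metalloprotease ADAM12 differ from the other stromal cells of the same tumour type. MO5 is a B16 mouse melanoma line that carries the ovalbumin gene. It had been implanted under the skin of young adult ADAM12-GFP mice of the C57Bl/6 background, which carry a bacterial artificial chromosome transgene with Cre-Ires-GFP under Adam12 control, and tumours were taken at an early stage. The 4 GFP+ libraries came from GFP+ and the 4 GFP- libraries from GFP- cells, both gated as PDPN+ PDGFRα+ and as CD45- CD31-, so both groups share the transgene, the tumour model and the gate. The study's methods count n in mice unless another unit is given, and its n for these cells equals the number of libraries per group. Whether any library pooled animals is not stated beyond this. Whether GFP+ and GFP- libraries of the same number came from the same tumours is not given in the sources used here. The p-values measure the spread between these libraries.

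The proteins of these genes form or adjust the fibrillar matrix outside cells. Fibronectin is assembled by integrins into fibrils on which other matrix proteins are laid down. Tenascins, periostin, SPARC and thrombospondins are matricellular proteins, which bind fibres, growth factors and receptors rather than bear load, and several of them are known for their rise in wounds and around tumours. Fibrillin microfibrils carry elastin and hold latent TGF-β in the matrix.

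Total counts ran from 7868787 to 17535099 in 3 GFP- libraries and from 8776925 to 31666734 in the 4 GFP+ libraries, while GFP- replicate 3 held 883144. Values below are normalised counts, that is, raw counts divided by a DESeq2 size factor per library. In the shallow library they rest on raw counts from 113 for Thbs3 to 8849 for Fn1. Pdgfra was higher in GFP+ cells (log2 fold change 1.32, DESeq2 adjusted p = 1.9e-12) and Adam12, the gene that drives the reporter, was higher by 0.75 on the log2 scale (adjusted p = 0.0266) yet was read in GFP- libraries too, at 919.7 to 1693 normalised counts against 1833 to 2938. Pdpn was higher by 0.70 (adjusted p = 0.0134). The Adam12 call was lost with edgeR (adjusted p = 0.0643) and without GFP- replicate 3 or 4 or GFP+ replicate 2 or 4 (DESeq2 adjusted p from 0.0689 to 0.117), and that of Pdpn without GFP- replicate 1 or 4 or GFP+ replicate 3 (0.0563 to 0.0799). When libraries were scaled on 15 stromal genes in place of all genes, none of the 3 was called, with Pdgfra at 0.56 (DESeq2 adjusted p = 0.0876), Adam12 at 0.0741 (0.841) and Pdpn at -0.0798 (0.837). Melanocyte genes, 12 of 12 tested, were lower in GFP+ libraries, and their summed share was 0.0475% to 0.139% of counts there against 0.295% to 0.929% in GFP- libraries. The 12 leukocyte genes together held at most 0.0566% of any library, with Ptprc, which encodes CD45, at 119.4 to 1703 normalised counts, and the 10 endothelial genes at most 0.0302%. In contrast, the 10 fibroblast genes summed to 6.43% to 6.51% of GFP+ counts and to 2.86% to 5.52% of GFP- counts. As these are bulk samples, fewer cells of a type and less RNA per cell cannot be told apart.

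Of the 10 genes, 5 were higher in GFP+ cells (Thbs1, Thbs2, Thbs3, Tnxb and Sparc), 1 was lower (Tnc), and Fn1, Postn, Fbn1 and Eln did not pass the test (DESeq2, adjusted p under 0.05). Over all 15283 genes tested the called share was 9.42%, with 4.66% higher and 4.76% lower. The median log2 fold change of the 10 genes was 0.54, against -0.01 over all tested genes. With edgeR's quasi-likelihood test, which called 5.11% of genes (2.83% higher and 2.28% lower), Thbs1, Thbs2, Thbs3 and Tnxb passed, whereas Sparc (adjusted p = 0.0906) and Tnc (adjusted p = 0.0737) did not.

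These directions are relative to all genes. When libraries were instead scaled on 15 collagen and other stromal genes such as Col1a1, Dcn and Lum, which themselves had a median log2 fold change of 0.68, all log2 fold changes moved by a median of -0.79 and the higher share of the calls went from 49.48% to 1.815%. On that scale 33.0% of all tested genes were called, 0.598% higher and 32.4% lower. None of the 10 genes was higher there, Fn1, Tnc and Postn were lower, which is 3 of 10, and the estimates for Tnxb, Fbn1 and Eln turned negative. Relative to other stromal genes, then, a rise of thrombospondins was not called, and the melanocyte and stromal shares above moved with the groups. Their part in the differences was not tested.

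**Figure D1:**
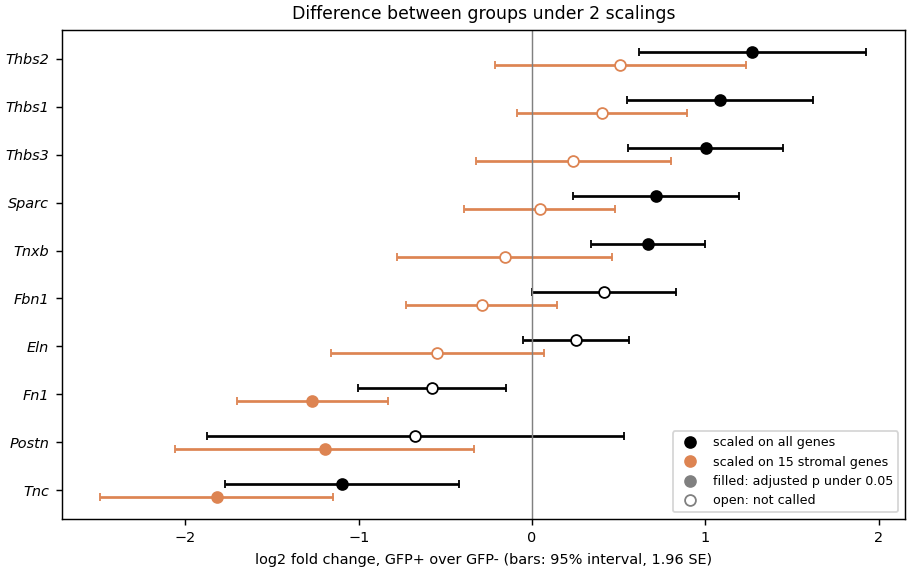
Log2 fold change of GFP+ over GFP- libraries for each of the 10 genes (x axis, bars are 95% intervals), scaled on all genes (black) or on 15 stromal genes (orange). Filled points have an adjusted p under 0.05: 5 genes lie to the right and Tnc to the left in black, while in orange only Fn1, Postn and Tnc are filled, all to the left, and Tnxb, Fbn1 and Eln change sign.

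For the called genes that have a promoter entry in RefSeq (GRCm38.p6), the 250 bases before the annotated start are shown so that the genes that moved together can be read side by side. An entry was found for 7 of the 10 genes but not for Fn1, Thbs1 or Eln, so Thbs1, also called higher, is not shown. The RefSeq start used for Sparc lies inside the gene as GENCODE gives it (chr11:55394500-55423183). Each sequence runs 5′ to 3′ on the strand of its gene, with motif matches in capitals. The first 4 belong to genes higher in GFP+ cells, namely Thbs2 (chr17:14694263-14694512, minus strand), Thbs3 (chr3:89214930-89215179, plus), Tnxb (chr17:34670285-34670534, plus) and Sparc (chr11:55420081-55420330, minus), and the last to Tnc (chr4:64047016-64047265, minus), which was lower.
Thbs2: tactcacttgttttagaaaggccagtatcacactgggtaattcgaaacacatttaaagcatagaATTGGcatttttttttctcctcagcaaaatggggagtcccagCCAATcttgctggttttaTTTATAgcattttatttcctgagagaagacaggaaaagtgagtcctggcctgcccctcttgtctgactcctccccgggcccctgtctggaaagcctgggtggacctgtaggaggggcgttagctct
Thbs3: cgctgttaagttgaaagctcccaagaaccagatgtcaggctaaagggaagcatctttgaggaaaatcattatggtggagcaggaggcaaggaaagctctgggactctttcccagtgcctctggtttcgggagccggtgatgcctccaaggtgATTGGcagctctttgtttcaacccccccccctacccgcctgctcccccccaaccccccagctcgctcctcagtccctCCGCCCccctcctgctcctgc
Tnxb: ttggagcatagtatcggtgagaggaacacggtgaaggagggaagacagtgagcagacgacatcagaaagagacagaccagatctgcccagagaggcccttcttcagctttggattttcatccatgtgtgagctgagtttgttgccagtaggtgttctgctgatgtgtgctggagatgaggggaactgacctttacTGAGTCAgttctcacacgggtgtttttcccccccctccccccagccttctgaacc
Sparc: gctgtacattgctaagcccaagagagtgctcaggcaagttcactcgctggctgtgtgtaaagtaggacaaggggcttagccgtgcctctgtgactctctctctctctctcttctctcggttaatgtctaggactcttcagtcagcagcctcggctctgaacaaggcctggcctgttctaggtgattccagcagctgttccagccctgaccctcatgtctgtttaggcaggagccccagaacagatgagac
Tnc: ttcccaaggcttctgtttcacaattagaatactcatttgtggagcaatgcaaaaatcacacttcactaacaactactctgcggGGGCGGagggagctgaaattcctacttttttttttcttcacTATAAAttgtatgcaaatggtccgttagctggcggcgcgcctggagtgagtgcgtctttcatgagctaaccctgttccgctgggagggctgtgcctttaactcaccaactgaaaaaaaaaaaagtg

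Motifs were searched by their letters on both strands, and their matches do not overlap in the windows shown. Over all 32851 RefSeq windows of this length, the TATA box, searched as TATAAA, was found in 12.4%, the CCAAT box in 33.8% and the GC box, searched as GGGCGG, in 32.7%. The AP-1 motif, as TGANTCA, was found in 6.75%, the STAT motif, as TTCNNNGAA, in 7.02%, the TEAD motif, as GGAATG, in 12.6% and the CArG box in 1.47%. Thbs2 held TATAAA on the opposite strand, at position -126 from the start site, and CCAAT at -186 (opposite strand) and -144. Thbs3 held CCAAT at -98 and GGGCGG at -21, both on the opposite strand. No single motif was shared by the 4 windows of higher genes: the Tnxb window held only TGANTCA, at -55, and the Sparc window none of the motifs. The Tnc window shown held GGGCGG at -167 and TATAAA at -126. RefSeq gives Tnc a second, overlapping window (chr4:64046937-64047186), in which the same matches lie at -246 and -205. A match is a string of letters in the window, and binding was not measured.

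Fibronectin was the most abundant of the 10 in GFP- cells. Fn1 (ENSMUSG00000026193, chr1:71585520-71653200, minus strand) had 142471, 146732, 97227 and 77723 normalised counts in GFP- replicates 1 to 4 and 77950, 70897, 77819 and 84157 in GFP+ replicates 1 to 4. GFP- replicates 1 and 2 stood far above all GFP+ libraries, GFP- replicate 3 stood above them as well, and GFP- replicate 4 lay within their range. The means were 116038 ± 33974 and 77706 ± 5418 (SD, n = 4 each), and the log2 fold change of -0.58 (SE 0.22) missed the threshold (DESeq2 adjusted p = 0.0739). GFP- replicate 4 had the smallest stromal share of counts, 3.601%, the largest melanocyte share, 0.9286%, and the lowest GFP- value of 8 of the 10 genes. Without it the Fn1 difference was -0.73 with an adjusted p of 0.0025 by DESeq2, and without GFP- replicate 3 the adjusted p was 0.0480. Without GFP- replicate 1 or 2, in contrast, it was -0.47 (DESeq2 adjusted p = 0.225) and -0.45 (adjusted p = 0.255), and edgeR gave an adjusted p of 0.146 with all libraries. With all libraries and a minimum mean of 10 raw counts, DESeq2 called Fn1 lower (-0.58, adjusted p = 0.0375). On the stromal scale Fn1 was 130519 to 155822 in GFP- and 56786 to 68701 in GFP+ libraries, without overlap (log2 fold change -1.27, adjusted p = 1.2e-06 by DESeq2).

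The tenascins moved in opposite directions when scaled on all genes. Tenascin C (Tnc, ENSMUSG00000028364, chr4:63959785-64047015, minus strand), a protein of remodelling and tumour matrix, was at 7441, 6885, 12317 and 3535 in GFP- and at 4932, 2266, 3734 and 3148 in GFP+ replicates 1 to 4. The groups overlapped because GFP- replicate 4 lay below the 2 highest GFP+ libraries. The log2 fold change was -1.10 (SE 0.34, DESeq2 adjusted p = 0.0208). That call was lost without GFP- replicate 3 (-0.77, DESeq2 adjusted p = 0.112), without GFP+ replicate 2 (adjusted p = 0.0783) and without GFP+ replicate 3 (adjusted p = 0.0510). Scaled on stromal genes, the groups did not overlap, with 7087 to 16534 in GFP- against 1967 to 3593 in GFP+ (log2 fold change -1.82, DESeq2 adjusted p = 7.5e-06).

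Tenascin XB (Tnxb, ENSMUSG00000033327, chr17:34670535-34719815, plus strand) is the tenascin of loose connective tissue, associated with collagen fibrils. Its normalised counts were 22673, 22004, 29578 and 27216 in GFP- and 48201, 35254, 40939 and 36661 in GFP+ replicates 1 to 4. Every GFP+ library lay above every GFP- library. The groups did not overlap in 4 of the 10 genes, each time with GFP+ higher, and in 12.3% of all tested genes, counting both directions. The log2 fold change was 0.67 (SE 0.17, DESeq2 adjusted p = 0.0020, edgeR adjusted p = 0.0246). On the stromal scale it was -0.16 (DESeq2 adjusted p = 0.698), with GFP- replicates 3 and 4 at 39706 and 54565, above all GFP+ libraries.

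The ratio of the tenascins within a library does not depend on the scaling. The log2 ratio of Tnc to Tnxb was -1.61, -1.68, -1.26 and -2.95 in GFP- and -3.29, -3.96, -3.45 and -3.54 in GFP+ replicates 1 to 4. The groups did not overlap, and the mean ratio was 3.22-fold lower in GFP+ cells. The exact permutation test gave p = 0.0286, the smallest that 4 against 4 allows, and 0.171 after adjustment over the 6 pairs of genes compared. A single pair at that floor could not pass after this adjustment, so the adjusted test could not decide the matter.

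Periostin varied more within the GFP- group than between groups. Postn (ENSMUSG00000027750, chr3:54361109-54391037, plus strand), a matricellular protein that supports collagen cross-linking, was at 47634 and 49100 in GFP- replicates 1 and 2 but at 9779 and 7165 in GFP- replicates 3 and 4. The GFP+ libraries, at 15472, 15949, 15339 and 24549, lay between these pairs. The log2 fold change was -0.67 with an SE of 0.61 (DESeq2 adjusted p = 0.591). It was -1.19 on the stromal scale (DESeq2 adjusted p = 0.0269), with the groups still overlapping.

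Sparc (ENSMUSG00000018593, chr11:55394500-55423183, minus strand) encodes the collagen-binding glycoprotein osteonectin. It stood at 24716, 23975, 18931 and 10956 in GFP- and at 33365, 28241, 32448 and 34919 in GFP+ replicates 1 to 4. The groups did not overlap, GFP- replicate 4 was the lowest, and the log2 fold change was 0.71 (SE 0.25, DESeq2 adjusted p = 0.0410). The call was close to the threshold: it was lost in 8 of the 15 other settings, among them the removal of any single GFP+ library (adjusted p from 0.0501 to 0.109) or of GFP- replicate 3 (adjusted p = 0.0898). Scaled on stromal genes, the ranges overlapped, 21966 to 26247 against 24306 to 28506. The log2 ratio of Postn to Sparc was 0.95 and 1.03 in GFP- replicates 1 and 2 and between -1.11 and -0.51 in the other 6 libraries. The difference of -0.98 did not pass (exact permutation p = 0.143, adjusted p = 0.429).

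**Figure D2:**
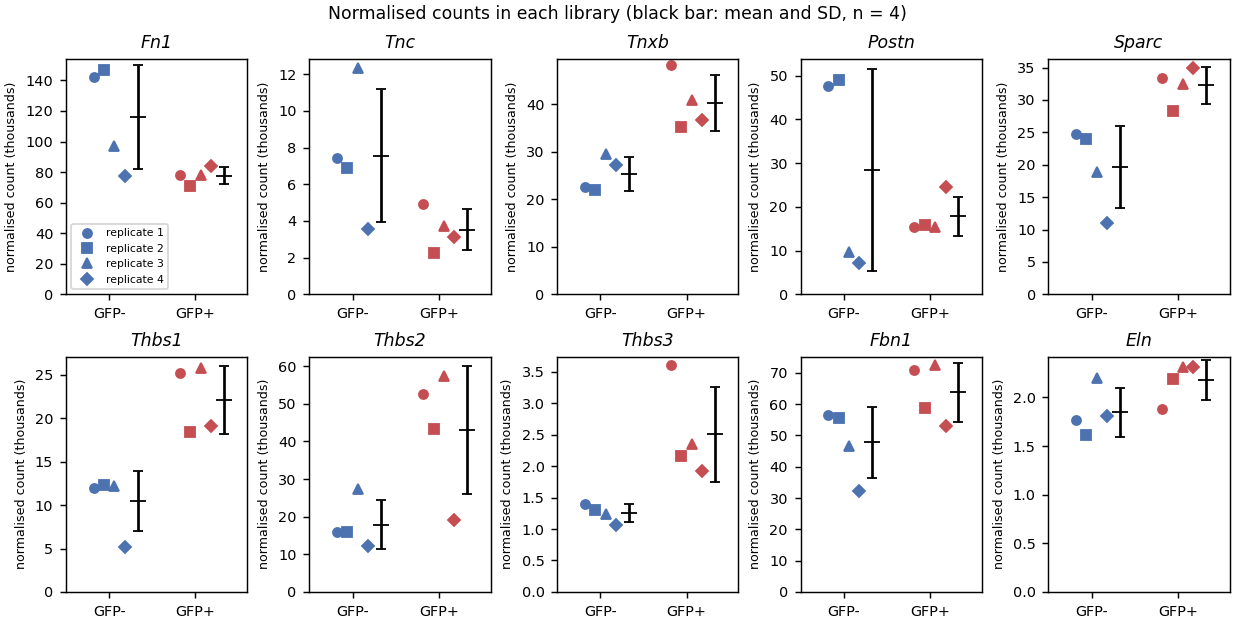
Normalised count (divided by 1000, y axis from 0) of each of the 10 genes in the 4 GFP- (blue) and 4 GFP+ (red) libraries, with marker shape giving the replicate and black bars the mean and SD. Tnxb, Sparc, Thbs1 and Thbs3 show no overlap between groups on this scale, GFP- Postn falls into a high and a low pair, and GFP- replicate 4 (diamond) is the lowest GFP- library for 8 of the 10 genes.

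The 3 thrombospondins among the 10 genes were higher in GFP+ cells, by 1.00 to 1.27 on the log2 scale when scaled on all genes. Thbs1 (ENSMUSG00000040152, chr2:118111876-118127133, plus strand) and Thbs2 encode the trimeric thrombospondins, which inhibit angiogenesis through CD36 and bind CD47, and thrombospondin 1 is an activator of latent TGF-β. Thbs1 was at 11990, 12350, 12229 and 5233 in GFP- and at 25279, 18405, 25782 and 19089 in GFP+ replicates 1 to 4. The groups were apart in every library, and 3 of the GFP- libraries lay within a narrow band with replicate 4 well below. The log2 fold change was 1.08 (SE 0.27, DESeq2 adjusted p = 0.0020, edgeR adjusted p = 0.0242).

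Thbs2 (ENSMUSG00000023885, chr17:14665500-14694235, minus strand) was at 15990, 15839, 27292 and 12336 in GFP- and at 52665, 43250, 57236 and 19131 in GFP+ replicates 1 to 4. GFP+ replicate 4 lay below GFP- replicate 3, so the groups overlapped, while the other 3 GFP+ libraries lay above all GFP- libraries. The log2 fold change of 1.27 (SE 0.33) was the largest of the 10 and passed with both tools (DESeq2 adjusted p = 0.0035, edgeR adjusted p = 0.0326). Thbs3 (ENSMUSG00000028047, chr3:89215180-89226837, plus strand), a pentameric thrombospondin, was at 1400, 1299, 1242 and 1066 in GFP- and at 3612, 2155, 2345 and 1916 in GFP+ replicates 1 to 4. No library overlapped, and the log2 fold change was 1.00 (SE 0.23, DESeq2 adjusted p = 0.00043, edgeR adjusted p = 0.0116). Its exons overlap Mtx1 on the opposite strand, which had only 1751 reads over all libraries, and reads had been counted by strand.

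The calls of Thbs1, Thbs2, Thbs3 and Tnxb held without any one library, with log2 fold changes of 0.86 to 1.17, 1.11 to 1.54, 0.79 to 1.11 and 0.58 to 0.74. None of Thbs1, Thbs2 and Thbs3 was called on the stromal scale: Thbs1 was at 0.40 (DESeq2 adjusted p = 0.188), Thbs2 at 0.51 (0.262) and Thbs3 at 0.24 (0.514). The ratios between thrombospondins were not found to differ between groups, at -0.07 for Thbs1 to Thbs2 (exact permutation p = 0.971), 0.18 for Thbs1 to Thbs3 (exact p = 0.571) and 0.25 for Thbs2 to Thbs3 (exact p = 0.514) on the log2 scale. Leaving out single libraries moved these differences between -0.36 and 0.08, -0.04 and 0.31, and 0.06 and 0.49, respectively.

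The elastic fibre genes did not pass the test. Fibrillin 1 (Fbn1, ENSMUSG00000027204, chr2:125300594-125507993, minus strand), the backbone of microfibrils, was at 56615, 55646, 46608 and 32159 in GFP- and at 70749, 58669, 72404 and 53090 in GFP+ replicates 1 to 4. GFP+ replicate 4 lay below the 2 highest GFP- libraries. The log2 fold change was 0.42 (SE 0.21, DESeq2 adjusted p = 0.235). Elastin (Eln, ENSMUSG00000029675, chr5:134702593-134747323, minus strand) was at 1770, 1611, 2197 and 1805 in GFP- and at 1884, 2194, 2312 and 2316 in GFP+, with overlapping ranges. Its log2 fold change was 0.25 (SE 0.16, DESeq2 adjusted p = 0.361), with a 95% interval of -0.05 to 0.56. Both estimates turned negative on the stromal scale, at -0.29 and -0.55, again without passing the test, although Fbn1 then had no overlap between GFP- (59029 to 64474) and GFP+ libraries (43340 to 55325). The log2 ratio of Fbn1 to Eln differed by 0.20 between groups (exact permutation p = 0.543).

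Per kilobase of exon, which allows levels to be compared between genes, Fn1 led in GFP- cells at 9931 ± 2908 normalised counts per kilobase (SD, n = 4). Sparc followed at 5186 ± 1673, then Fbn1 at 3938, Postn at 3266, Thbs2 at 2551, Tnxb at 2078, Thbs1 at 1721, Tnc at 970.7, Thbs3 at 259.5 and Eln at 227.9. Fn1 was apart from Sparc and Tnc from Thbs3, whereas the ranges of the other neighbours in this order overlapped. In GFP+ cells Sparc came first, at 8512 ± 754.0, above Fn1 at 6650 ± 463.6 in all 4 libraries, and Thbs2 at 6150 ± 2426 overlapped both Fn1 and Fbn1 at 5255. Thbs1 at 3645, Tnxb at 3298, Postn at 2049, Thbs3 at 519.8, Tnc at 452.9 and Eln at 268.8 followed. Among the lower 6, the neighbours Thbs1 and Tnxb overlapped, as did Thbs3 and Tnc. Together the 10 genes took 1.946% to 3.302% of counts in GFP- and 2.626% to 2.894% in GFP+ libraries, and Fn1 alone ranked 7 to 9 among all genes by raw count in GFP- and 12 to 13 in GFP+ libraries.

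**Figure D3:**
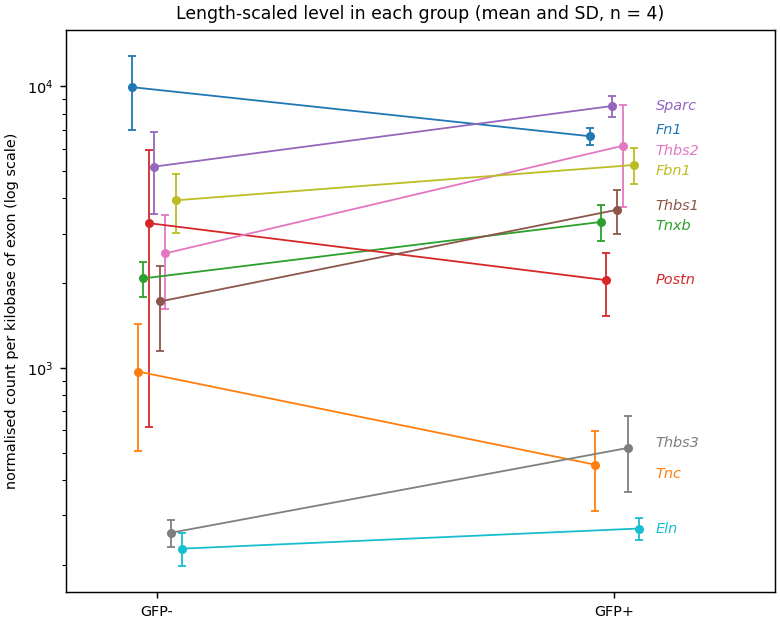
Mean normalised count per kilobase of exon (log axis) of the 10 genes in GFP- and GFP+ libraries, with SD over 4 libraries. Fn1 leads in GFP- and Sparc in GFP+ cells, Tnc and Thbs3 change places, and Eln is the lowest in both. Lines join the same gene and directions are those of scaling on all genes.

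Over all tested genes, 4.66% were higher and 4.76% lower, with a median log2 fold change of -0.01. The 10 fibroblast genes had 6 higher, 0 lower and a median of 0.75. Relatives of these families were followed as a list of 31 genes, of which 27 were tested, 9 were higher, 2 lower and 16 not called, with a median log2 fold change of 0.40. The higher ones include the SPARC relatives Smoc2 (1.45, adjusted p = 5.4e-08), Spock2 (1.77, adjusted p = 0.00064) and Sparcl1 (0.99, adjusted p = 0.0069) and the fibulins Fbln2 (1.14, adjusted p = 2.3e-05), Fbln7 (1.66, adjusted p = 0.0017) and Efemp1 (0.72, adjusted p = 9.3e-05), all by DESeq2. Smoc2 was at 582.3 to 995.8 in GFP- and at 1637 to 2806 in GFP+ libraries. Fbln2, which binds fibronectin and fibrillin, was at 5100 to 8768 in GFP- and at 10377 to 16126 in GFP+. These 6 genes were picked by their adjusted p, and none overlapped between groups. Of all tested genes, 12.3% did not overlap.

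The lower relatives were Thbs4 and Fbln5. Thrombospondin 4, like thrombospondin 3 a pentamer, went the opposite way to the 3 thrombospondins above, with 328.3, 293.8, 131.8 and 99.8 in GFP- and 74.99, 54.39, 50.7 and 85.55 in GFP+ replicates 1 to 4 (log2 fold change -1.71, DESeq2 adjusted p = 0.0026). Fbln5, which helps place elastin on microfibrils, was at 824 to 1280 in GFP- against 509.2 to 737.4 in GFP+ (-0.80, DESeq2 adjusted p = 0.0032). Neither gene overlapped between groups, but both were named because they had been called. Both calls held with edgeR and without any one library.

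Of 22 receptor genes, 21 were tested. Against 4.66% higher and 4.76% lower over all tested genes, 6 were higher, 0 lower and 15 not called, with a median of 0.32. The thrombospondin receptors Cd36 (1.70, DESeq2 adjusted p = 0.0014), Cd47 (0.87, adjusted p = 1.4e-05), Cacna2d1 (1.07, adjusted p = 1.4e-06) and Lrp1 (0.86, adjusted p = 5.0e-05) were among them. Cd47 was at 2188 to 2857 in GFP- and at 3706 to 5161 in GFP+ libraries, and Lrp1, an endocytic receptor that also takes up thrombospondins, at 25612 to 35170 against 47976 to 67311. Sdc4, a syndecan that acts with integrins in adhesion to fibronectin, was higher by 0.91 (DESeq2 adjusted p = 0.0016). The integrin chains Itga5 (0.32, adjusted p = 0.535) and Itgb1 (0.16, adjusted p = 0.705), which pair as the main fibronectin receptor, did not pass with DESeq2. The single integrin chain that passed, Itga2b, known from platelets, was at 13.57 to 131.8 against 98.59 to 233.5 (1.78, DESeq2 adjusted p = 0.0207), overlapped between groups and lost its call in 7 of 15 settings.

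Of 25 genes for fibre assembly and turnover, 22 were tested. Against 4.66% higher and 4.76% lower over all tested genes, 6 were higher, 1 lower and 15 not called, with a median of 0.44. Ltbp4 (1.17, DESeq2 adjusted p = 4.1e-07) and Ltbp3 (0.52, adjusted p = 0.0017) encode latent TGF-β binding proteins of the fibrillin superfamily. Lox, the lysyl oxidase that cross-links collagen and elastin, was at 2004 to 4703 in GFP- and at 5277 to 8286 in GFP+ (0.95, DESeq2 adjusted p = 0.0086, and 0.0547 without GFP+ replicate 3). The proteases Htra1 (0.83, DESeq2 adjusted p = 2.5e-11) and Adamts1 (0.93, adjusted p = 0.00033), which cleave fibronectin and matrix proteoglycans, respectively, were higher. Mmp12, macrophage elastase, was nearly silent in GFP- cells, with raw counts of 0, 1, 0 and 8, and had 83, 20, 331 and 44 in GFP+ replicates 1 to 4 (log2 fold change 5.73, 95% interval 3.38 to 8.08, DESeq2 adjusted p = 8.5e-05). The estimate rests on few reads: it was 4.65 without GFP+ replicate 3 and 7.10 without GFP- replicate 4, and without GFP+ replicate 1 DESeq2 gave no adjusted p. Mmp9, a gelatinase, was lower, at 135.5 to 361.2 against 12.13 to 127.8 normalised counts (-2.47, DESeq2 adjusted p = 0.0028), and the difference was -3.53 without GFP+ replicate 1.

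After scaling on stromal genes, Fbln7 (1.03, DESeq2 adjusted p = 0.0462) and Mmp12 (4.61, DESeq2 adjusted p = 0.0014) were the only list genes called higher, and the estimates for Efemp1 and Ltbp3 turned negative. Against 32.4% of all genes called lower on that scale, the relatives had 7 lower genes of 24 tested, Thbs4 and Fbln5 among them, and a median of -0.34. Of 20 receptor genes tested, 5 were lower (Itga9, Neu1, Itga4, Glb1 and Itgb5), with a median of -0.47, and none of the 6 called before was among them. Assembly and turnover genes had 4 lower of 22 (Mmp9, Loxl3, Ltbp2 and Adamtsl4), with a median of -0.34.

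**Figure D4:**
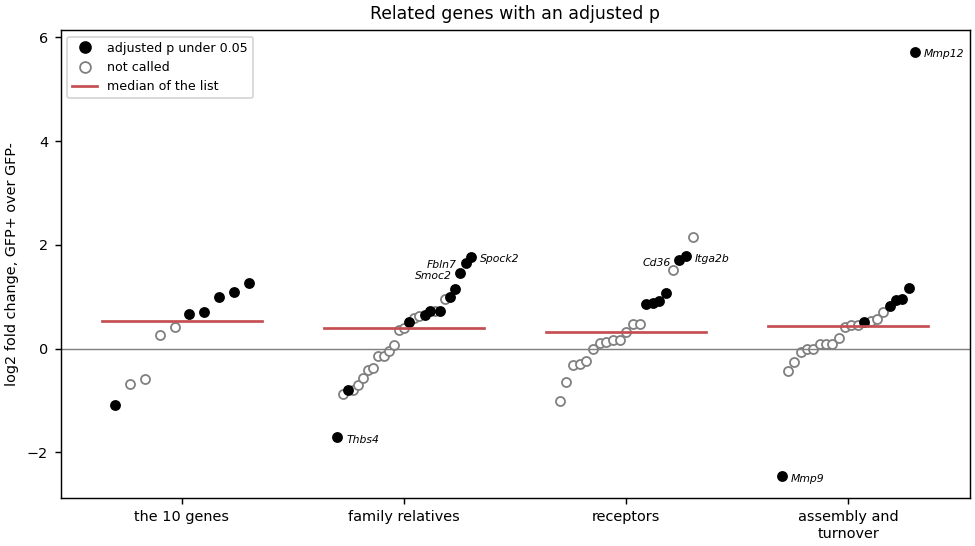
Log2 fold change of GFP+ over GFP- libraries, scaled on all genes, for the 10 genes and 3 lists of related genes that had an adjusted p, each point a gene, ordered within its list. Black points passed the test, and red lines mark list medians of 0.54, 0.40, 0.32 and 0.44. Thbs4 and Mmp9 are the lowest called genes and Mmp12 the highest.

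The profile of each called gene over the 8 libraries was compared with those of 8811 genes with a mean of at least 100 normalised counts, as the mean absolute difference of log2 values centred on each gene's mean. For Sparc the closest were the fibrillar collagen genes Col3a1 (0.10) and Col5a2 (0.12) and the proteoglycan gene Vcan (0.10). Thbs1 was closest to Col6a3 (0.11) and Ccl7 (0.12), and Thbs2 to Slco2a1 (0.13), Aldh1a1 (0.15) and Greb1 (0.17). The profile of Thbs3 was most like those of Il11ra1 (0.10), Klf9 (0.10) and Trib1 (0.11), and that of Tnxb like Hspb8, Fcgrt and Tulp4 (0.08 each). Tnc had the loosest match, to Lrrc15 (0.19), Ereg (0.23) and Edc3 (0.24). These distances describe 8 libraries that share 2 groups.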

How the data were processed

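Stranded total RNA libraries for low inputs had been sequenced from 4 GFP+ and 4 GFP- samples, grouped by their labels. Per the study's methods and the submitters' processing notes, the authors trimmed reads with cutadapt 3.4, mapped them to GRCm38 with STAR 2.7.3a and counted reads per gene by strand with featureCounts 2.0.1. The authors deposited a raw count per gene and library, from which all results were computed. Also in the table, and not used, are a normalised score for each library made by the authors, the deposited mean signal, their fold ratio and log2 fold change, and deposited p-values. Such counting may lose or split reads of near-identical genes.

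The 29043 genes with any count were fitted with DESeq2 1.42.0 in R 4.3.3 (group only, two-sided Wald test, Benjamini-Hochberg, adjusted p under 0.05, independent filtering), and 15283 received an adjusted p. edgeR 4.0.16 (quasi-likelihood), TMM factors, a stromal scaling list, no Cook's filter, no independent filtering, 10 raw counts as the lowest allowed mean, stricter thresholds, a replicate block and leaving out each library were the alternatives. The fits were tested on simulated data with 200 changed genes. DESeq2 recovered 44 of 100 genes at a log2 change of 1 and 95 of 100 at 2, with 76 false calls. edgeR recovered 28 and 82, with 5 false calls. DESeq2 thus made more false calls than its threshold allows, so edgeR values stand beside the calls of the 10 genes. The list genes, mostly given by DESeq2 alone, share this limit. edgeR called 9 relatives, 5 receptors and 7 assembly and turnover genes, against 11, 6 and 7 by DESeq2. Ratios within a library used a pseudocount of 0.5 and a two-sided exact permutation test over 70 splits. No replicate was a duplicate: chi-square values per degree of freedom, between libraries of 1 group, were 10.2 to 81.3. Of the table's identifiers 99.82% were found in GENCODE M21, the source of coordinates and exon lengths. Named genes were the 10 genes, up to 6 called genes in each direction per list by adjusted p, and the 3 nearest profiles of each called gene, of which 1 is not reported here. Itga5, Itgb1 and the genes called lower only on the stromal scale were added after their values were seen. The 10 genes, lists and tests were chosen with earlier results of these data known.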

Additional observations from a re-analysis of the deposited data

Results flagged for a closer look

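Samples far from the others of their group were looked for in 32 sets of 4 values, and 4 stood out by Dixon's criterion, which chance meets in about 1 of 20 sets. Postn in GFP+ replicate 4 was 24549 normalised counts, above 15339 to 15949 in the other GFP+ libraries. Thbs1 in GFP- replicate 4 was 5233, below 11990 to 12350 in the others. The log2 ratio of Thbs1 to Thbs2 in GFP+ replicate 4 was -0.00317, above -1.23 to -1.06 in the other GFP+ libraries, the library in which Thbs2 was lowest. The log2 ratio of Thbs2 to Thbs3 in GFP- replicate 3, the shallow library, was 4.45, above 3.51 to 3.61 in the other GFP- libraries.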

How the results depend on the processing

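Scaling on 15 stromal genes called 4352 genes in place of 1439 and left 0 of the 10 genes higher and 3 lower, and Tnxb (-0.16), Fbn1 (-0.29), Eln (-0.55), Efemp1 (-0.0331), Ltbp3 (-0.28), Pdpn (-0.0798) and Pecam1 (-0.37) changed sign. By construction this scale removes what those stromal genes share. edgeR called 732 genes and 0 of the 10 lower, and an adjusted p under 0.01 called 844 genes and 0 of the 10 lower. A minimum mean of 10 raw counts called 2 of the 10 lower, Fn1 and Tnc. A log2 fold change of at least 1 left 924 genes, 3 of the 10 higher, 5 relatives, 3 receptors and 3 assembly and turnover genes. Leaving out single libraries gave 969 to 1837 genes, 4 to 5 of the 10 higher and 0 to 2 lower. The sign of Ptprc, not called, turned to 0.0859 with edgeR and to 1.15, 0.28 and 0.25 without GFP- replicate 3, GFP+ replicate 1 and GFP+ replicate 3, within -0.94 to 1.15 over all libraries left out.

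Nothing in the labels ties libraries of the same number, and they were not treated as pairs. Their deviations from the group means correlated at 0.05, -0.16, -0.12 and 0.26 for numbers 1 to 4, and not every library correlated best with its own number. With the replicate number as a block, 1492 genes were called, 5 of the 10 higher and 1 lower, and 11 assembly and turnover genes. Under the same pairing the exact permutation p of the Tnc to Tnxb ratio was 0.125, the smallest 4 pairs allow. How far the depth of GFP- replicate 3, 883144 counts, limited the calls was not tested beyond leaving it out, which gave 4 of the 10 higher and 1 lower, and called Pecam1 higher (1.31, DESeq2 adjusted p = 0.0044).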
